A study of Drosophila melanogaster with 23 samples.

Results

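FASN1 is a fatty acid synthase gene and bond a fatty acid elongase gene, both named in the platform annotation of these arrays. All features with either symbol were taken, which gave 1 feature for FASN1 (Entrez 33524, chromosome arm 2L) and 1 for bond (Entrez 42657, arm 3R), of 6101 features in the table. Both were measured on all 23 arrays. Each array compared RNA of adult Drosophila melanogaster males in its 2 channels. The 8 strains were Canton S, Oregon R, Hikone R, St Louis, and the 4 Zimbabwe strains Zimbabwe2, Zimbabwe29, Zimbabwe30 and Zimbabwe53. No allele, drug or diet distinguished the groups in the labels. All were reared at 25 °C without a light cycle, and males were held away from females for 3 to 4 days. Extracts of 8 to 12 whole flies each were mixed, leaving 1 RNA pool for a strain. The errors and p-values of strains below therefore hold no spread between flies. Except in alternatives that fitted single arrays, they come from how closely the differences of the pairs of strains fit together. The arrays of a pair were averaged first. Of 13 pairs of strains hybridised together, 8 had 2 arrays with the channels exchanged and 5 had 1, and 2 further arrays held the same strain in both channels.

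Fatty acid synthase builds saturated long-chain fatty acids from acetyl and malonyl units. In Drosophila melanogaster these feed fat stores in the fat body, membranes, and the hydrocarbons that coat the cuticle, which are made in the oenocytes. FASN1 is the synthase of the fat body, while its relatives FASN2 and FASN3 act in the oenocytes. bond belongs to the ELOVL family, which lengthens fatty acids to very long chains. It is needed for the long-chain lipid that males carry as a pheromone in the ejaculatory bulb, and for the division of spermatocytes in the testis. A fly ground whole mixes all these tissues, so fewer cells of a type and less RNA per cell cannot be told apart.

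The values are ratios of the 2 channels. Their base is not stated, and they were read as log10 ratios and brought to the log2 scale. If they were log2 ratios instead, the largest FASN1 difference given below as 1.89-fold would be 1.21-fold, and that of bond 1.08-fold in place of 1.28-fold. The sources also do not say which channel is divided by which. Positive and negative signs therefore mark only opposite sides, and turning all of them together would be as good a reading. No strain is called higher or lower. Each array was centred on its median, and ratios are written as the first-named strain over the second-named one. An offset between the channels was estimated for each feature from the 8 pairs of strains hybridised with the channels exchanged, and subtracted. It was 0.10 log2 for FASN1 and 0.10 for bond.

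The strains differed in FASN1. Oregon R and Zimbabwe2, the extremes, lay 1.89-fold apart (log2 0.92 ± 0.10 SE, 21 arrays; adjusted p = 3.4e-06 in the moderated F test of limma over 8 strains). In that test 45.2% of the 4841 features tested also passed, so the call alone does not set FASN1 apart. The size was above that of 88.7% of these features, whose median was 1.39-fold. The residual SD of FASN1 was 0.10 log2, and only 9.15% of the features had a smaller one. This SD was taken after averaging the arrays of each pair of strains, so it leaves out the gap between the 2 arrays of a pair. For bond the extremes, Zimbabwe30 and St Louis, lay 1.28-fold apart, and the test was not passed (adjusted p = 0.239 in limma). Of all features, 27.3% had a smaller range than bond and 74.2% a smaller residual SD, which was 0.23 log2 for bond. Whether the variation of the 2 genes differs was not tested.

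**Figure D1:**
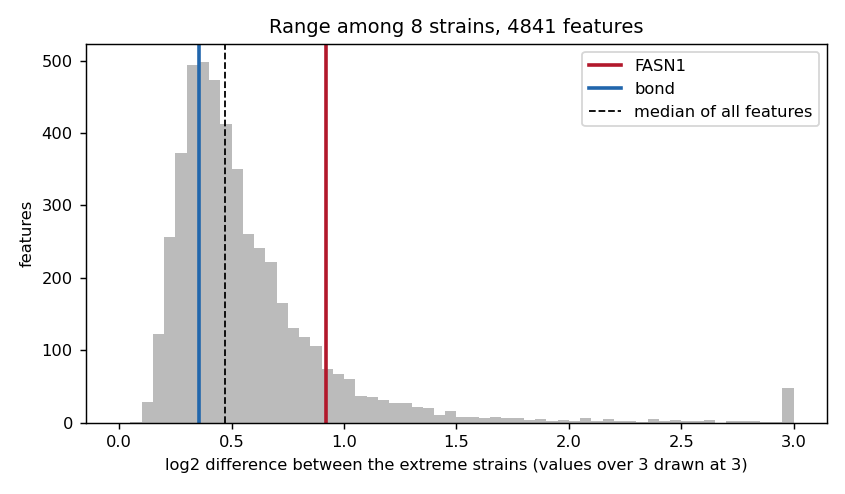
Histogram of the log2 difference between the extreme strains for the 4841 features tested, with lines at FASN1 (0.92), bond (0.35) and the median of all features (0.47). FASN1 lies in the right tail and bond to the left of the median.

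The single arrays showed where the FASN1 difference lay. For Canton S over Zimbabwe53 the log2 ratio was -0.71 and -0.78 on the 2 arrays. For Oregon R over Zimbabwe53 it was -0.77 and -1.01, and for Zimbabwe30 over Zimbabwe53 it was -0.69 and -0.84. In these 3 pairs both arrays lay on the same side, and the sign of the ratio turned when the channels were exchanged. The arrays with Zimbabwe2 gave -0.80 for Canton S over Zimbabwe2 and -0.91 for Oregon R over Zimbabwe2. Zimbabwe2 over Zimbabwe53 gave only 0.14. So Zimbabwe2 and Zimbabwe53 stood on 1 side of Canton S and Oregon R by similar amounts, and close to each other.

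The other FASN1 ratios were smaller. Canton S over Oregon R gave -0.024 and 0.073, and Canton S over Zimbabwe29 gave -0.0047 and 0.046. Both pairs scattered around 0. Canton S over Zimbabwe30 gave -0.26 and -0.12, St Louis over Zimbabwe53 gave -0.14 and -0.54, St Louis over Zimbabwe30 gave 0.18, and Hikone R over Zimbabwe29 gave 0.21. The 2 arrays of Canton S over Hikone R disagreed, at -0.45 and 0.15. Before the offset was removed, the ratio changed sign with the channels in 5 of the 8 exchanged pairs for FASN1 and in 5 for bond, and the median over features measured in all 8 was 5. The gap of Canton S and Hikone R was the widest of the 8 for FASN1, and without 1 or the other array the level of Hikone R against the other 7 strains moved to -0.32 or 0.08. On the self-hybridisations, from which no channel offset was taken, FASN1 was at 0.0084 for Canton S and 0.058 for Zimbabwe53, where the SD over all features was 0.17 and 0.14.

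**Figure D2:**
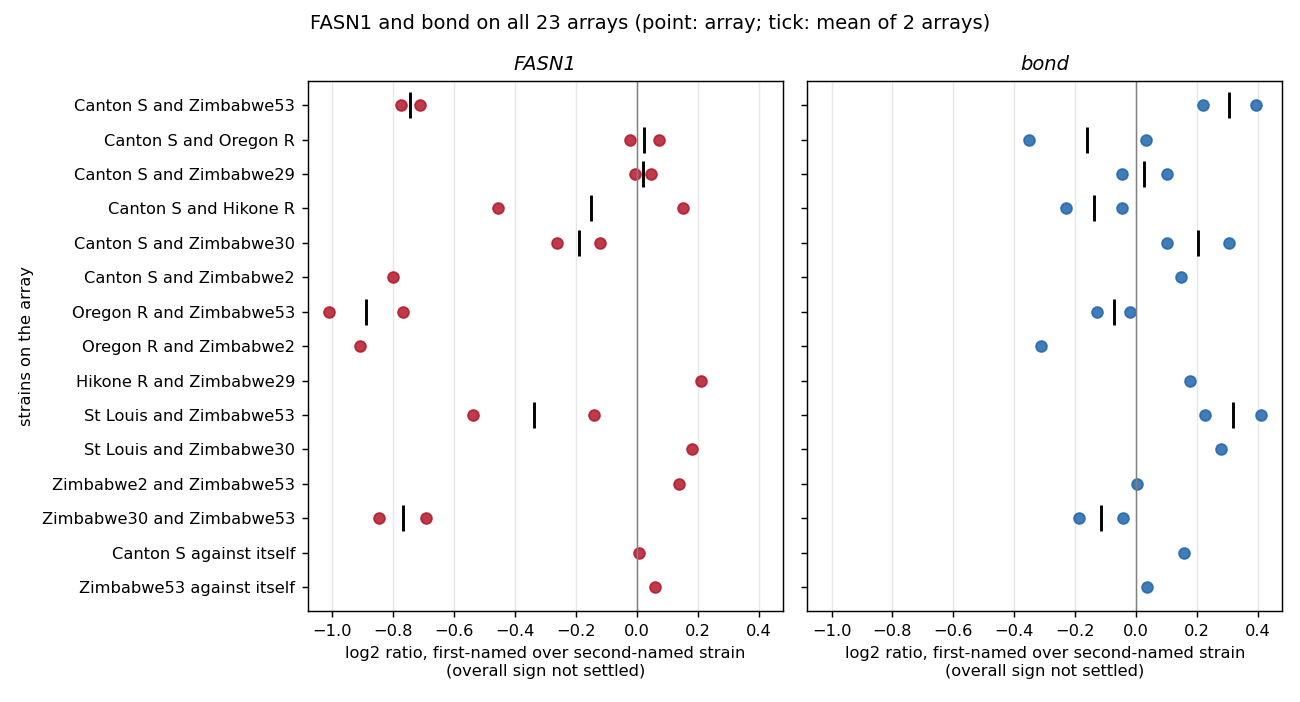
Log2 ratio of FASN1 (left) and bond (right) on each of the 23 arrays, by the strains on the array, as the first-named over the second-named strain after centring and, except on the 2 self-hybridisations, removal of the channel offset. Points are arrays and black ticks means of 2 arrays. For FASN1 the pairs that set Zimbabwe2 or Zimbabwe53 against Canton S, Oregon R or Zimbabwe30 lie between -0.69 and -1.01, while bond stays between -0.35 and 0.41.

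Strain levels fitted to all 13 pairs of strains put FASN1 in the following order, relative to the mean of the 8 strains. Oregon R was at -0.34 ± 0.06 (SE), Zimbabwe29 at -0.32 ± 0.09 and Canton S at -0.29 ± 0.04. Zimbabwe30 followed at -0.15 ± 0.07, Hikone R at -0.12 ± 0.09 and St Louis at 0.13 ± 0.09. Zimbabwe53 at 0.51 ± 0.05 and Zimbabwe2 at 0.58 ± 0.08 closed the order. Of the 7 pairs of neighbours in this order, St Louis and Zimbabwe53 alone passed the test of their difference (1.31-fold, adjusted p = 0.00703 in limma, where 25.3% of all features passed). That call was lost without the replicate 2 array of these strains (adjusted p = 0.166) and without the St Louis and Zimbabwe30 array (adjusted p = 0.0627). The step from Hikone R to St Louis was 1.19-fold and did not pass (adjusted p = 0.492 in limma, with 3% of all features passing).

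Against the mean of the other 7 strains, FASN1 passed in 5 strains, where 12.8% of all tests of features and strains passed. Zimbabwe2 differed 1.58-fold (log2 0.66 ± 0.09 SE, 3 arrays; adjusted p = 0.000535, limma) and Zimbabwe53 1.5-fold (0.59 ± 0.06 SE, 9 arrays; adjusted p = 6.5e-06). On the opposite side, Canton S differed 1.25-fold (-0.33 ± 0.05 SE, 11 arrays; adjusted p = 0.000335), Oregon R 1.31-fold (-0.39 ± 0.07 SE, 5 arrays; adjusted p = 0.00334) and Zimbabwe29 1.28-fold (-0.36 ± 0.10 SE, 3 arrays; adjusted p = 0.0383). Of all features, 6.49% passed in Zimbabwe2, 26.2% in Zimbabwe53, 19% in Canton S, 12.4% in Oregon R and 8.92% in Zimbabwe29. For Canton S, Oregon R and Zimbabwe29 the other 7 strains included Zimbabwe2 and Zimbabwe53, which moved the mean they were set against. No pair among Canton S, Oregon R, Hikone R, Zimbabwe29 and Zimbabwe30 passed for FASN1. The sizes ran from 1.02-fold to 1.16-fold, and 5.83% to 17.6% of all features passed in these pairs. The call in Zimbabwe29 was not stable. It was lost when any 1 of 11 arrays was left out, with an adjusted p of up to 0.145 when the Hikone R and Zimbabwe29 array was the one missing. It was also lost with equal weights (adjusted p = 0.0585), without centring (0.0524) and with a random block for arrays whose titles share a stem (0.0736), the meaning of which the labels do not give. Hikone R, St Louis and Zimbabwe30 did not pass (adjusted p = 0.403, 0.489 and 0.163 in limma, where 10.9%, 6.22% and 11.9% of all features passed). The interval of Hikone R ran from -0.36 to 0.07 log2 (95%), that of St Louis from -0.07 to 0.36, and that of Zimbabwe30 from -0.33 to -0.01 before adjustment.

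**Figure D3:**
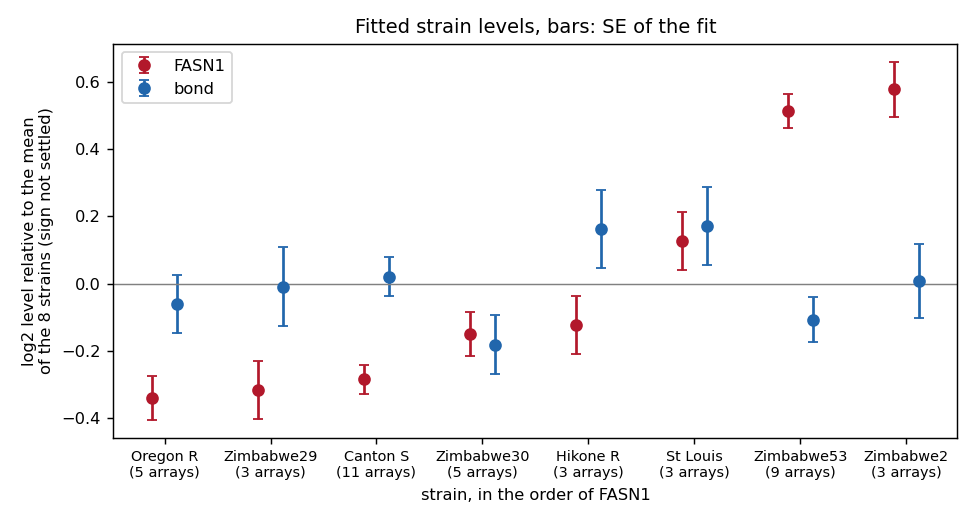
Fitted log2 levels of FASN1 and bond in the 8 strains relative to their mean, with SE bars from the fit, in the order of FASN1. Zimbabwe53 and Zimbabwe2 lie apart for FASN1 (0.51 and 0.58), while all bond levels lie between -0.18 and 0.17.

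Among the 28 pairs of strains, FASN1 passed in 13, against 11.9% of all tests of features and pairs. Every pair of Zimbabwe2 or Zimbabwe53 with Canton S, Oregon R, Hikone R, Zimbabwe29 or Zimbabwe30 was among them, with sizes from 1.56-fold for Hikone R and Zimbabwe53 to 1.89-fold. With Zimbabwe2, 10.1% of all features passed for Canton S, 12% for Oregon R and 10.6% for Hikone R. With Zimbabwe53 these shares were 24.6%, 16.2% and 16.7%. The other 3 calls were between St Louis and Canton S (1.33-fold), Oregon R (1.38-fold) or Zimbabwe53, where 8.04%, 9.61% and 25.3% of all features passed. St Louis and Zimbabwe2 lay 1.37-fold apart and missed the threshold (adjusted p = 0.0522 in limma, 7.6% of all features passing). This pair passed in 6 of 21 fits without an array and under 4 of 9 other settings, with an adjusted p down to 0.0149. Zimbabwe2 and Zimbabwe53 differed by 0.06 ± 0.10 log2 (SE; adjusted p = 0.78, 4.67% of all features passing), with a 95% interval from -0.14 to 0.27. Of the 13 calls, 8 were kept whichever array was left out. The 2 calls of Hikone R were lost when the replicate 2 array of Canton S with Hikone R was left out (adjusted p = 0.0901 with Zimbabwe2 and 0.0768 with Zimbabwe53). The call between St Louis and Canton S was lost in 7 fits without an array and that with Oregon R in 4. The largest adjusted p, 0.265 and 0.176, came without the replicate 1 array of St Louis and Zimbabwe53.

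The hybridisations formed closed loops of 3 strains, in which the difference of 2 strains can be read directly and through the remaining strain. For FASN1 the direct log2 difference of Oregon R and Zimbabwe53 was -0.89, and the path through Zimbabwe2 gave -0.77. Canton S and Zimbabwe2 differed by -0.80 directly and by -0.88 through Oregon R. Canton S and Zimbabwe53 differed by -0.74 directly, and by -0.86, -0.66 and -0.96 through Oregon R, Zimbabwe2 and Zimbabwe30. Over the 7 loops the gap between both readings had a median size of 0.12 log2 for FASN1, with the largest at 0.25 in the loop of St Louis, Zimbabwe30 and Zimbabwe53. For bond the median size was 0.22 and the largest 0.62, in the loop of Canton S, Oregon R and Zimbabwe2. Over all features tested, the median size of the gap lay between 0.14 and 0.23 in the 7 loops.

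**Figure D4:**
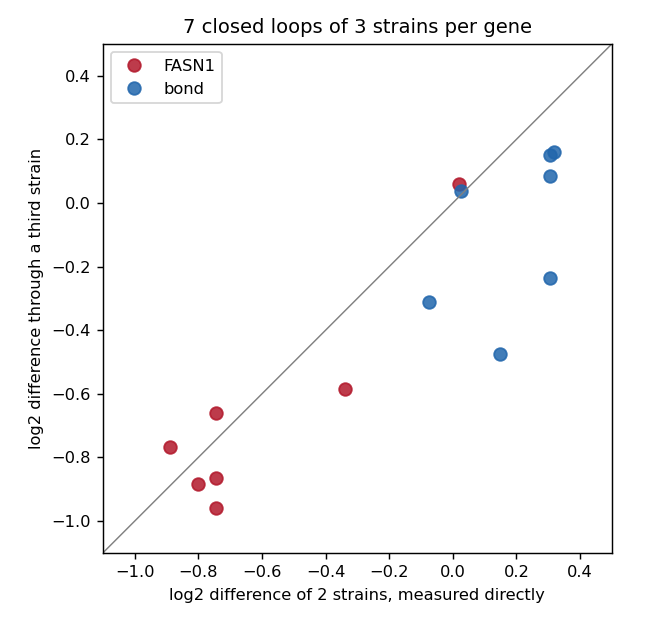
Log2 difference of 2 strains measured directly (x axis) against the same difference through another strain (y axis), for the 7 closed loops of 3 strains; the line marks equality. FASN1 points with direct differences from -0.74 to -0.89 stay near the line, while bond points fall up to 0.62 below it.

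The Zimbabwe strains did not share a FASN1 level. Zimbabwe2 and Zimbabwe53 were at one end of the order, and Zimbabwe29 was next to Oregon R at the other. Zimbabwe2 and Zimbabwe29 differed 1.86-fold, Zimbabwe29 and Zimbabwe53 1.78-fold, Zimbabwe2 and Zimbabwe30 1.66-fold and Zimbabwe30 and Zimbabwe53 1.59-fold (adjusted p = 0.00201, 0.000575, 0.00215 and 5.2e-05 in limma). Those pairs passed for 5.39%, 15.5%, 3.82% and 16.2% of all features. The mean of the 4 Zimbabwe strains was 0.16 ± 0.46 (SD over strains) and that of the other 4 was -0.16 ± 0.21, with overlapping ranges. The difference of 1.24-fold did not pass (adjusted p = 0.634 in limma, with 0.248% of all features called; exact permutation p = 0.314 over the 35 splits of 4 against 4 strains, of which the smallest possible is 0.0286).

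For bond, no strain or pair of strains passed a test. The log2 ratios of Canton S over Zimbabwe53 were 0.39 and 0.22, and those of St Louis over Zimbabwe53 were 0.41 and 0.23. Canton S over Zimbabwe30 gave 0.30 and 0.10, and St Louis over Zimbabwe30 gave 0.28. In these 4 pairs all arrays lay on 1 side, with Canton S or St Louis against Zimbabwe30 or Zimbabwe53. For Canton S over Zimbabwe30 that depended on the offset, since the arrays gave 0.40 and -0.00071 before its removal. Canton S and Zimbabwe53 differed by 0.31 directly, and by 0.15 through Zimbabwe2 and 0.09 through Zimbabwe30. Through Oregon R the difference was -0.23, on the opposite side. Zimbabwe30 over Zimbabwe53 gave -0.19 and -0.04, Oregon R over Zimbabwe53 -0.13 and -0.02, and Canton S over Hikone R -0.05 and -0.23. The arrays of Canton S over Oregon R lay on both sides, at 0.03 and -0.35, and so did those of Canton S over Zimbabwe29, at 0.10 and -0.05. Oregon R over Zimbabwe2 gave -0.31, Hikone R over Zimbabwe29 0.18, Canton S over Zimbabwe2 0.15 and Zimbabwe2 over Zimbabwe53 0.0023. No channel offset was taken off the arrays of a strain against itself, where Canton S gave 0.16 and Zimbabwe53 gave 0.035. From the other arrays it was removed, except where stated.

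The fitted bond levels ran from -0.18 ± 0.09 (SE) in Zimbabwe30 and -0.11 ± 0.07 in Zimbabwe53 to 0.16 ± 0.12 in Hikone R and 0.17 ± 0.12 in St Louis. Oregon R was at -0.06 ± 0.09, Zimbabwe29 at -0.01 ± 0.12, Zimbabwe2 at 0.01 ± 0.11 and Canton S at 0.02 ± 0.06. No neighbours in this order differed beyond their spread. No strain passed against the other 7 (0 of 8 in limma, also 0 at an unadjusted p under 0.05), and no pair of the 28 passed (2 at an unadjusted p under 0.05, St Louis with Zimbabwe30 and with Zimbabwe53, where 13.7% and 25.3% of all features passed after adjustment). This does not show that the strains are alike. For Canton S and Zimbabwe53, which were each on more arrays than any other strain, the 95% interval of the bond difference ran from -0.08 to 0.33 log2. Over the 28 pairs the intervals reached up to 1.63-fold. In the test of origins the bond levels were -0.07 ± 0.09 (SD over strains) for the 4 Zimbabwe strains and 0.07 ± 0.11 for the other 4. The ranges overlapped and the difference of 1.11-fold did not pass (adjusted p = 0.560 in limma; exact permutation p = 0.114).

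Across the 8 strains the levels of FASN1 and bond had a Pearson r of -0.01. It is a description, since all levels come from the same arrays, as do those of the genes compared next. Among 542 other named genes past the F test, the 4 most like FASN1 in their levels over the 8 strains were CG46339 (r = 0.90), CG9631 (0.85), Nipsnap (0.84) and Spn27A (0.84), a serpin that restrains the melanisation cascade. The 4 most opposed were Naam (-0.89), a nicotinamidase, Dhit (-0.87), Pura (-0.86) and CG2082 (-0.86). Of the 542, CG46339 alone exceeded 0.9 in size. Leaving out single arrays moved these coefficients between 0.74 and 0.94 in size for the 4 most like and to as little as 0.73 for the 4 most opposed. For bond the most alike of 543 genes were cal1 (0.91), a centromere assembly factor, CG14995 (0.90), CG6652 (0.86) and CG7382 (0.85). The most opposed were EndoU (-0.97), CG42240 (-0.95), CG10345 (-0.94) and iPLA2-VIA (-0.93), a phospholipase. The bond levels themselves did not pass the F test, and leaving out single arrays took r to as little as 0.62 for cal1 and -0.77 for CG42240.

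The genes nearest to the members on their chromosome arms were also read. In the RefSeq gene order, only small nuclear RNA genes lie between FASN1 and FASN2, and FASN2 was not analysed here. The nearest tested genes were Mad and gkt on one side, with 4 and 5 annotated genes in between, and lilli and daw on the other, with 29 and 52. Of these 4, gkt passed the F test (1.71-fold, adjusted p = 0.00121 in limma), which 38.5% of named genes passed. bond lies beside sit and CG33110, which were not analysed here. Its nearest tested genes were AdipoR, the adiponectin receptor relative, and CG5326, another elongase, on one side, and Dph5 and loco on the other. None of these 4 passed in limma, and 2 were under an unadjusted p of 0.05 (adjusted p from 0.0676 for CG5326 to 0.508 for loco). CG5326 passed in 3 of 21 fits without an array and under 4 of 9 other settings, and AdipoR in 2 and 2. A printed cDNA can also bind the transcripts of close relatives, and the part of that in the FASN1 and bond values was not tested.

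The remaining genes of lipid metabolism were taken from 7 lists. Of 208 listed names, 40 genes were tested, FASN1 and bond included. Of the other 38, 22 passed the F test (57.9%), against 38.5% of the 1409 named genes tested. The median range of the 38 was 1.41-fold and that of all named genes 1.35-fold. Of the 22 calls, 17 held under all alternatives that tested the gene. The exceptions were pdgy, frj, Sply, Fatp1 and nSMase.

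On the list of fatty acid synthesis, the other gene tested was AMPKalpha, the catalytic subunit of the kinase that restrains fatty acid synthesis. It did not pass (1.35-fold, adjusted p = 0.122 in limma). Of 6 genes of elongation and desaturation, 3 passed (50%, against 38.5% of all named genes tested). These were CG9747, a desaturase (1.80-fold, adjusted p = 0.00107), Sc2, a reductase of the elongation cycle (1.54-fold, adjusted p = 0.00286), and the elongase CG31523 (1.36-fold, adjusted p = 0.000908). The elongases CG5326 and CG31522 did not pass (1.36-fold and 1.15-fold). CG9747 had Oregon R at one end, as FASN1 had, but St Louis at the other. Of the list of hydrocarbon formation, Sgp passed (1.96-fold) and Cyp4g15 did not (1.19-fold).

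Among the 7 lists, that of fat storage and lipases had the largest median range, 1.70-fold. The shares that passed were 70% for this list, 100% for activation and oxidation, 0% for carriers and 50% for phospholipids and sphingolipids. Among all named genes tested, 38.5% passed, and no list was tested against that share. Of 10 genes 7 passed: the lipases mag (4.52-fold), CG5966 (3.38-fold) and bmm (2.06-fold), the lipid droplet protein Jabba (2.53-fold), the acyltransferases mdy (1.71-fold) and mino (1.44-fold), and CG31683 (1.70-fold). Lsd-2, a perilipin, and Agpat1 and Agpat2 did not pass (1.15-fold, 1.25-fold and 1.25-fold). All 6 genes of fatty acid activation and oxidation passed, among them the acyl-CoA synthetases bgm (1.84-fold) and Acsl (1.55-fold), Acat1, an acetyl-CoA acetyltransferase (2.76-fold), and wal, an electron transfer flavoprotein subunit (1.48-fold). The other 2 were the transporter Fatp1 (1.39-fold) and pdgy (1.35-fold). Of 3 lipid carriers none passed (adjusted p = 0.0516 for LpR2, 0.0668 for Mtp and 0.116 for apolpp in limma), and 2 were under an unadjusted p of 0.05. Each of the 3 passed under some alternatives, apolpp under 1. Of 12 genes on the list of phospholipids and sphingolipids, mdy included, 6 passed. Among these were Pisd, a phosphatidylserine decarboxylase (1.82-fold), and lace, a subunit of serine palmitoyltransferase (1.42-fold). The remaining calls were Sply, a sphingosine-1-phosphate lyase (1.44-fold), the sphingomyelinase nSMase (1.41-fold) and frj (1.32-fold).

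**Figure D5:**
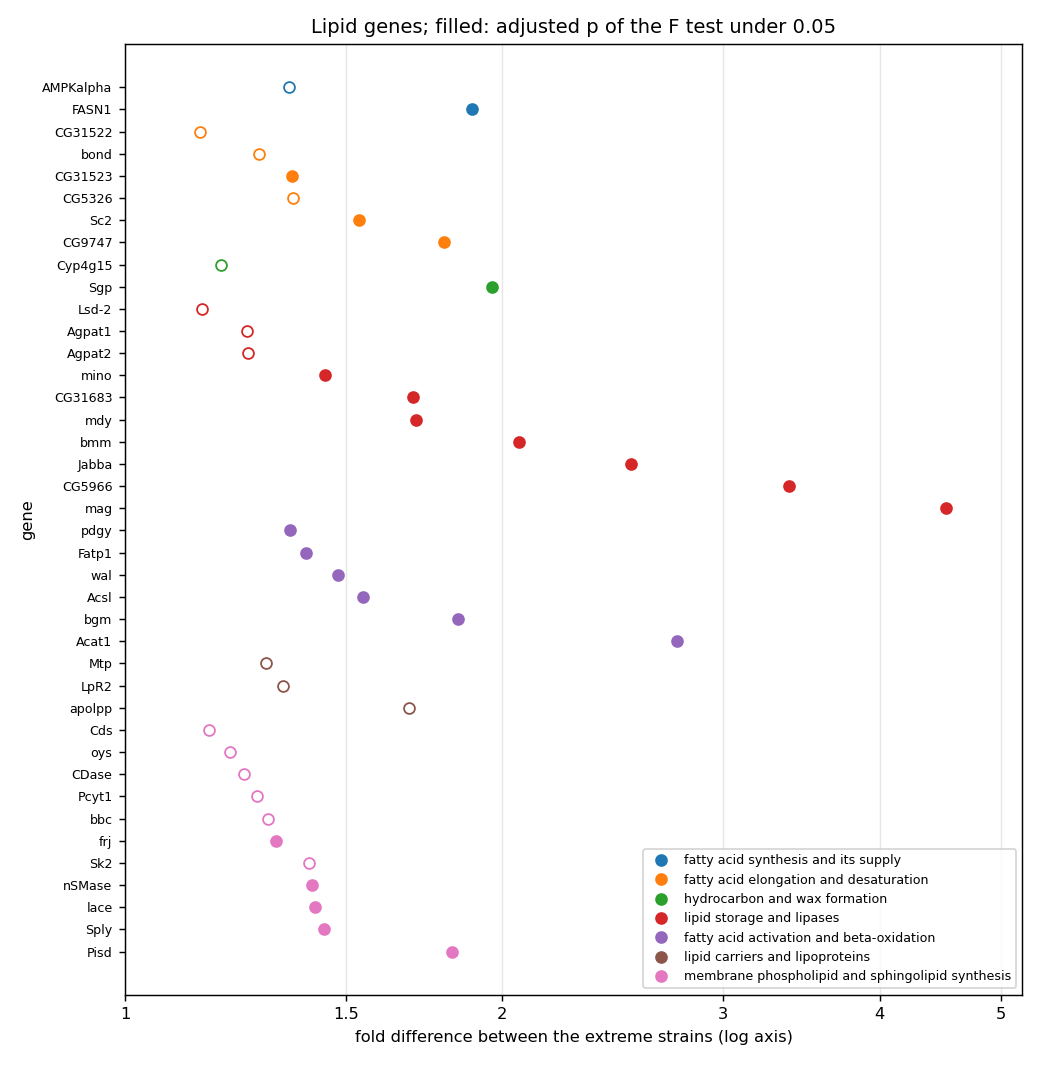
Fold difference between the extreme strains (log axis) for the 40 lipid genes tested, coloured by list; filled points passed the F test of limma and open points did not. FASN1 (1.89) passed and bond (1.28) did not, and the widest range is that of mag (4.52).

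Zimbabwe53 and Zimbabwe2, the strains on 1 side for FASN1, were set beside each other for the other lipid genes. In Zimbabwe53, 12 of the 38 other lipid genes passed against the other 7 strains (31.6%, against 26.2% of all features), 9 on the side of FASN1 and 3 opposite. In Zimbabwe2, 5 of 38 passed (13.2%, against 6.49%), 1 on the side of FASN1 and 4 opposite. The sides on which all passing features lay, and the share of named genes that passed in each strain, are not given here. The counts of sides therefore have nothing to be set against. bmm, the triglyceride lipase of the fat body, lay on the side of FASN1 in Zimbabwe53 (1.53-fold, adjusted p = 4.3e-05 in limma) and in Zimbabwe2 (1.35-fold, adjusted p = 0.0497). The latter call was lost when any 1 of 14 arrays was left out, with an adjusted p of up to 0.312 without the Oregon R and Zimbabwe2 array. mag lay on the opposite side in Zimbabwe2 (2.34-fold, adjusted p = 2.4e-06) and in Zimbabwe53 (1.39-fold, adjusted p = 8.1e-05), and both calls held under all alternatives that tested mag. Sgp and CG31683 lay on opposite sides in the 2 strains, 1.53-fold and 1.31-fold in Zimbabwe2 and 1.41-fold and 1.4-fold in Zimbabwe53. In Zimbabwe2 the call of CG31683 was lost without any 1 of 10 arrays (adjusted p up to 0.258) and that of Sgp without the array with Canton S (0.197) or with Zimbabwe53 (0.0669). bgm shared the side of FASN1 in Zimbabwe53 (1.32-fold, adjusted p = 0.00313). The levels of bgm and FASN1 over the 8 strains had r = 0.74, those of bmm and FASN1 r = 0.60 and those of mag and FASN1 r = -0.71, as descriptions.

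Markers of the tissues that use these genes were few. No marker of the oenocyte, accessory gland, ejaculatory bulb or female lists was tested, so no value is given for those tissues here. Of 6 ejaculatory bulb names, 1 was on the arrays, but it was not among the genes tested. Of 17 fat body names 3 were tested, FASN1 itself, mag and apolpp, the precursor of the main lipoprotein, which did not pass (1.68-fold, r = 0.13 with FASN1). Both gut genes tested, mag and yip7 (4.16-fold), passed the F test, which 38.5% of named genes passed. Of 44 testis names 4 were tested, and these 4 also passed: Prosbeta4R2, a proteasome subunit (3.02-fold), janB (2.25-fold), Hsp60B (1.97-fold) and ocn (1.94-fold). Their levels had r = 0.71 with bond for Hsp60B, 0.71 for ocn, 0.61 for janB and -0.04 for Prosbeta4R2, and between -0.29 and -0.01 with FASN1. The bond levels did not pass the F test (adjusted p = 0.239 in limma). Coefficients of that size with bond were also found for some lipid genes, such as AMPKalpha (-0.76), mdy (-0.74) and Pisd (0.72). The r of the markers are descriptions. Some of these markers stood apart in strains in which FASN1 did, and some in strains in which it did not. In St Louis, janB (1.40-fold, adjusted p = 0.0221 in limma) and ocn (1.48-fold, 0.0226) passed, as did 6.22% of all features. In Zimbabwe30, janB (1.22-fold, 0.0439), ocn (1.27-fold, 0.0451) and Prosbeta4R2 (1.35-fold, 0.00806) passed, as did 11.9% of all features. In Zimbabwe53, janB (1.43-fold, adjusted p = 8.7e-05 in limma), ocn (1.26-fold, 0.00573) and Hsp60B (1.46-fold, 0.00207) lay on the side opposite to FASN1, and Prosbeta4R2 did not pass (0.109). In Zimbabwe2 none of the 4 testis genes passed (adjusted p from 0.361 to 0.936). In Oregon R all 4 lay on the side of FASN1, from 1.32-fold for janB to 1.80-fold for Prosbeta4R2. In Canton S, janB (1.16-fold) and Prosbeta4R2 (1.38-fold) passed on that side. In Zimbabwe29, janB (1.77-fold), ocn (1.55-fold) and Prosbeta4R2 (1.96-fold) lay opposite. The gut gene yip7 lay opposite to FASN1 in Zimbabwe2 (1.62-fold, adjusted p = 0.00487), Canton S (1.73-fold) and Oregon R (2.34-fold), on its side in Zimbabwe29 (2.18-fold), and did not pass in Zimbabwe53 (0.109). Nor did yip7 pass in Hikone R, St Louis or Zimbabwe30. Of all features, 26.2% passed in Zimbabwe53, 6.49% in Zimbabwe2, 19% in Canton S, 12.4% in Oregon R and 8.92% in Zimbabwe29. The part of tissue shares in the FASN1 and bond values was not tested.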

How the data were processed

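The authors deposited 1 table of log ratios, channel against channel, for 23 spotted cDNA arrays. Their base is not given in the sources used here, nor are the scanner, spot filter and normalization. They were read as log10 values, since the largest, 1.56, would otherwise be a ratio of only 2.95. Per the labels, each strain gave 1 pooled RNA, so arrays are technical repeats. Array medians of the deposited log10 ratios lay between -0.0473 and -0.00352.

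Conversion to log2 was followed by subtraction of the median of every array. The channel offset of a feature was its mean over the 8 channel-exchanged pairs. Exchanged arrays were anticorrelated in all 8 pairs (r across features from -0.809 to -0.285). Ratios were turned to a common order of strains and averaged over the arrays of each of 13 pairs. A least squares fit with array numbers as weights gave strain levels, and limma 3.58.1 (R 4.3.3) moderated the variances. Features needed 10 of 13 pairs and 3 exchanged pairs, which left 4841. Arrays gave 3272 to 4987 values. Their number limits the precision, and intensities were not used here. The adjusted p (Benjamini-Hochberg, over all features within a comparison) had to be under 0.05. On simulated data for the F test of the 4841 features, 72% of 1.5-fold and 98% of 2-fold changes of 1 strain were recovered, and 7.10% of all calls fell on unchanged features. Only a small share of the simulated features changed, and the noise was independent between arrays. In the data 2187 features passed, so these rates need not hold for them. The alternatives were no channel offset, single arrays with a channel term, a title stem block, equal weights, no centring, scaled arrays, stricter and looser filters, a log2 reading and each array left out.

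The 2 genes, the gene lists and the tests were chosen with earlier results of these data known. Named genes were both members, lipid genes past the F test with the rest by count, the 4 most alike and 4 most opposed genes of each member, and the nearest 2 tested genes on each side. The lipid genes named that did not pass, and the testis and gut markers, lie outside this rule and were named after their values were seen. A gene with several features was represented by the feature with most arrays and, in a tie, the smallest residual SD. Gene names came from the platform annotation. Arms and neighbours came from the Release 6 gene table, whose start positions were read, and no distances are given.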

Additional observations from a re-analysis of the deposited data

Results flagged for a closer look

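Within the 4 Zimbabwe strains and within the 4 others, the level of each of the 24 genes examined (FASN1, bond and the 22 other lipid genes past the F test) was checked for a strain far from the rest. FASN1 and bond had none. The gap of the farthest strain, as a share of the range of the 4 strains, was 0.856 for bmm in St Louis, 0.843 for wal in Hikone R and 0.832 for lace in St Louis, each among the 4 other strains, and 0.870 for lace in Zimbabwe53 among the Zimbabwe strains. These exceeded Dixon's 95% critical value, in 4 of the 48 groups of 4 strains examined, and chance passes it in about 1 of 20 groups.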

How the results depend on the processing

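FASN1 passed the F test and bond did not under all 30 alternatives. The log2 reading among them multiplies all values alike, so it could change no call, here or in the counts of alternatives above. Without single arrays the FASN1 range lay between 1.84-fold and 1.95-fold (adjusted p up to 3.4e-05 in limma) and that of bond between 1.26-fold and 1.34-fold (adjusted p from 0.0572 to 0.396). Other settings gave up to 1.96-fold and 1.31-fold. Neither gene passed in the test of origins under any alternative. Restricting the table to features on all 21 arrays left 1081 of 1727 features past the F test, against 2187 of 4841. The number fell since fewer were tested, but the share that passed rose above the 45.2% of the wider set. FASN1 passed in 10 to 15 pairs without single arrays. For bond, St Louis with Zimbabwe30 and with Zimbabwe53 passed with the title stem as a block, and St Louis with Zimbabwe30 when the replicate 1 array of Canton S with Zimbabwe53 was left out. The FASN1 call between Canton S and St Louis was also lost without the channel offset (adjusted p = 0.0529) and with equal weights (0.0683).

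Values that missed the threshold changed side under some alternatives, and the cause was not tested. Not all of them lay near 0 before. With the processing described above, FASN1 was at -0.14 in Hikone R against the other 7 strains. Between Canton S and Hikone R, the pair whose arrays disagreed, it was at -0.16. bond in Zimbabwe2 against the other 7 strains was -0.020 without the channel offset and -0.00034 with equal weights, and bond in Zimbabwe29 was 0.00069 with equal weights and 0.0035 without centring. FASN1 between Oregon R and Zimbabwe29 was 0.023 without the channel offset, and between Canton S and Zimbabwe29 -0.000537 with the title stem as a block and -0.0072 with scaled arrays. Without single arrays, bond ran from -0.015 to 0.081 in Canton S, from -0.20 to 0.0087 in Oregon R, from -0.12 to 0.088 in Zimbabwe2 and from -0.055 to 0.040 in Zimbabwe29, and FASN1 from -0.32 to 0.079 in Hikone R. The FASN1 difference ran from -0.39 to 0.023 between Canton S and Hikone R, from -0.032 to 0.11 between Canton S and Zimbabwe29, from -0.077 to 0.061 between Oregon R and Zimbabwe29 and from -0.17 to 0.25 between Hikone R and Zimbabwe30. The number of arrays limits the precision. No paired analysis was possible because the labels number no replicates, so pairs by replicate number do not exist. Arrays were linked in other ways, by the exchanged channels and, as an alternative, by the title stem as a block (15 stems, correlation 0.263), under which FASN1 in Zimbabwe29 no longer passed (adjusted p = 0.0736) and the 2 bond pairs above did.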
